A study of Mus musculus with 4 samples.

Results

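The Sox, Gata and Klf families are DNA-binding transcription factors, and 42 of their genes were on the arrays described here: 19 Sox, 6 Gata and 17 Klf genes. They were taken by name, as the non-control probes whose gene name is Sox, Gata or Klf followed by a number. They made up 51 of 39429 probes and 42 of 31896 gene names. Expression was measured in embryonic mouse kidney at E15.5, in a hybrid of 129 and C57BL/6 that carries the Six2GFP reporter. Kidneys were dissected and sorted by fluorescence into Six2GFP-positive and Six2GFP-negative cells, and total RNA of each population was labelled with Cy3 and read on 2 one-colour Agilent arrays. The labels do not say how the reporter was made, how many embryos a sample holds or whether the samples of a group came from separate litters, so p-values measure only the spread between these samples, which may be technical. The cell type field calls both populations nephron progenitors, and a description field mentions tamoxifen, which no protocol does, so groups follow the titles and no treatment is assumed.

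Sox proteins bind DNA through an HMG box, Gata proteins through zinc fingers that read the word GATA, and Klf proteins through zinc fingers that read CACCC and GC-rich words. Many members are known for the cell lineage they act in, such as Sox17 in endothelium, Gata1 in red cells and Gata3 in the ureteric bud. Six2 marks the cap mesenchyme, the progenitor of the nephron, while ureteric bud, stroma, vessels and blood are other cells of the same organ.

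Each value below is the log2 processed signal of a gene's brightest probe relative to the 75th percentile of its array, and a difference is positive minus negative cells, with limma's standard error (n = 2 arrays per group) and its p-value adjusted over 24150 genes. The sort was visible in its own gene: Six2 stood at 5.58 and 5.74 on positive arrays 1 and 2 and at -0.17 and -0.15 on negative arrays 1 and 2 (5.82 ± 0.10, adjusted p = 0.000500). Of 9 nephron progenitor markers 8 were higher in positive cells and none lower, with a median of 4.81, and Fgf20, a progenitor growth factor, led them (7.04 ± 0.28, adjusted p = 0.000663). Between 72.5% and 79.1% of spots per array were well above background and no member's spot was saturated. Arrays correlated at 0.995 and 0.994 within the groups and at 0.945 to 0.951 between them, over the 24150 genes tested. The number of arrays limits the precision, and with any 1 array left out fewer of all genes were called in either direction.

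Most members that passed the test were lower in the progenitors. Of 39 members tested, 19 fell and 4 rose at an adjusted p of 0.05, while 18.3% of all genes tested fell and 20.7% rose. By family, 8 of 16 Sox, 4 of 6 Gata and 7 of 17 Klf genes fell, and 2, 0 and 2 rose. Falls of 2-fold or more were called in 15 members against 12.7% of all genes, and such rises in 0 members against 3.63% of all genes. The median difference was -0.54 over the members and 0.15 over all genes. The arrays of the groups did not overlap in 36 of 39 members, as in 74.8% of all genes. A gene is called under background in a group here if its probes were not well above background on either array. There were 5 members under background on both positive arrays but above it on both negative arrays, and 0 the other way round, against 3.57% and 0.398% of all genes. These 5, Gata1, Sox3, Sox5, Sox6 and Sox7, were tested only because of their signal in negative cells, which largely sets their direction. With only probes above background on all 4 arrays, 15 of 34 members were lower and 4 higher, against 16.4% and 23.9% of all genes. With the array median in place of the 75th percentile the median of all genes moved to 0.41, and 16 members were lower and 10 higher, against 15.6% and 44.8% of all genes.

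**Figure D1:**
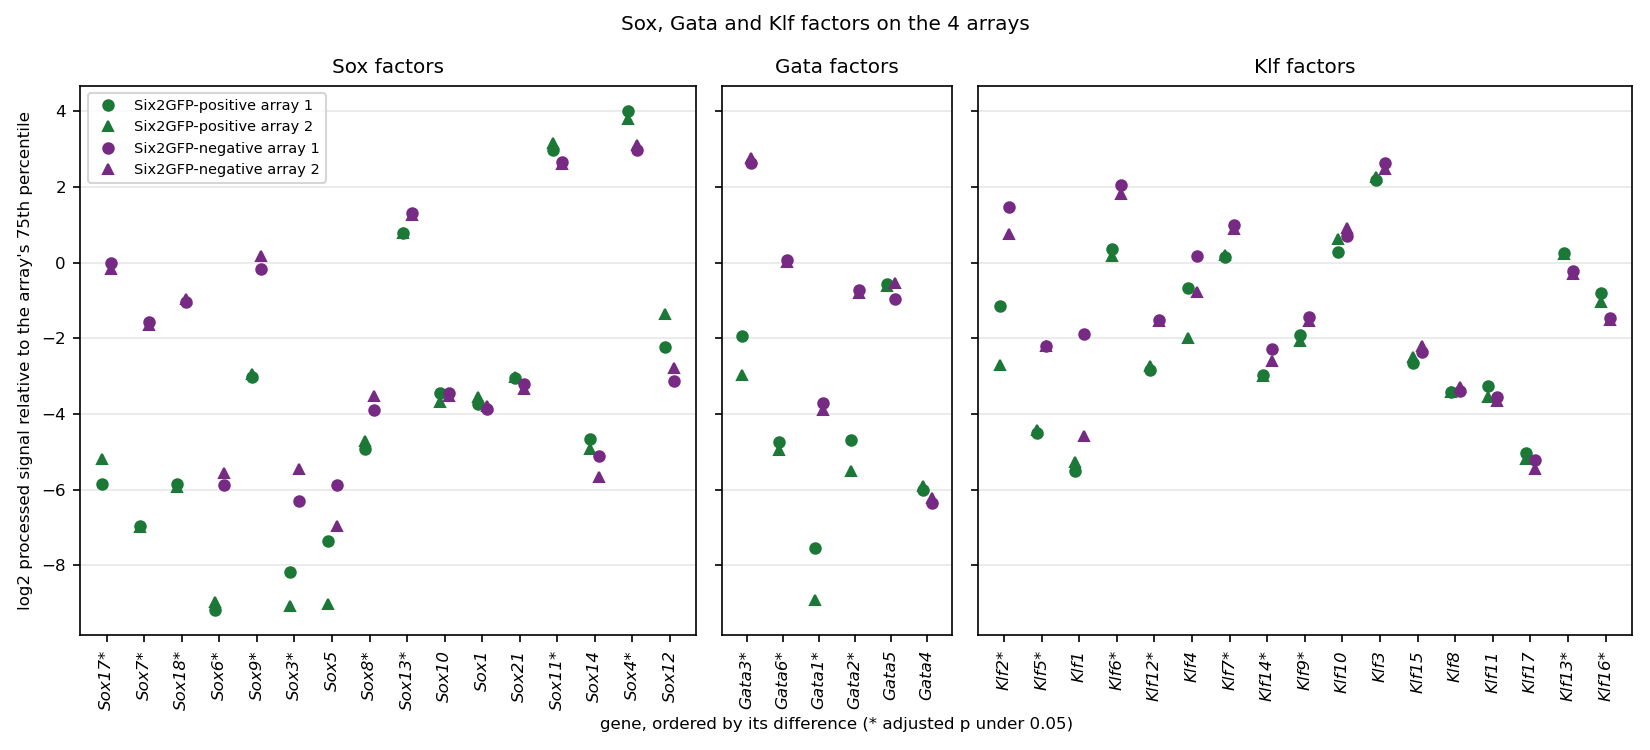
Processed signal in log2 units above or below the 75th percentile of its array (vertical axis) of each tested member, with green for Six2GFP-positive, purple for Six2GFP-negative, circles for array 1 and triangles for array 2 of a group; asterisks mark an adjusted p under 0.05. Heights of different genes are not comparable, since each has its own probe; the widest gaps between the groups are those of Sox17, Sox7, Gata3, Gata6 and Sox18, all lower in positive cells.

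The SoxF genes, Sox7, Sox17 and Sox18, act in endothelium and its arterial and lymphatic branches, and all 3 fell. Sox17 stood at -5.87 and -5.18 on the positive arrays and at 0.00 and -0.17 on the negative arrays, 43.4-fold lower in positive cells (-5.44 ± 0.26, adjusted p = 0.000955; mm9 chromosome 1, 4481503 to 4481562). Its other probe gave -4.68. The gap between the positive arrays was small beside that between the groups. Sox18 stood at -5.86 and -5.93 against -1.05 and -0.97, 29.5-fold lower (-4.88 ± 0.09, adjusted p = 0.000500; chromosome 2, 181404789 to 181404848). Sox7 stood at -6.97 and -6.99 against -1.57 and -1.65, 41.4-fold lower (-5.37 ± 0.09, adjusted p = 0.000500; chromosome 14, 64569419 to 64569478). It was not well above background on either positive array. Its signals there were not lower than the lowest that counts as above background, so this fold is the measured value and no lower bound. For other members a change of at least a given fold is a bound. Such a bound replaces a dim value by the lowest signal that counts as above background on that array, where this is higher, before the group means are compared. The adjusted p beside a bound comes from the fit of the measured values, those under background included, and does not test the bound. For Sox7 and Sox18 the arrays of each group lay close together. With normexp background correction, which adds an offset of 50 to every spot, Sox7, Sox17 and Sox18 differed by -2.77, -3.92 and -3.10.

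Endothelial markers differed in the same samples. Of 9 markers 8 were lower and 0 higher, with a median of -5.21, led by Robo4, a guidance receptor of vessels (-5.60 ± 0.12, adjusted p = 0.000500), and Cdh5, the endothelial cadherin (-5.47 ± 0.10, adjusted p = 0.000500). Their summed signal, in multiples of the 75th percentile, was 6.51 and 6.15 on the positive and 20.6 and 19.2 on the negative arrays, and none was under background in positive cells. The marker that did not pass was Kdr (0.07 ± 0.11, adjusted p = 0.640), at 2.61 and 2.52 on the positive and 2.58 and 2.41 on the negative arrays. Kdr made up most of the summed signal on the positive arrays, where every other endothelial marker lay below the 75th percentile. Such sums, here and below, depend mostly on the brightest genes of a list. In bulk samples fewer cells of a type and less RNA per cell cannot be told apart, and the part of endothelial cells in the SoxF differences was not tested.

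Of the SoxE genes, which act in neural crest, cartilage, gonad and epithelial tips, Sox9 and Sox8 fell. Sox9 was read by 10 spots of 1 probe and stood at -3.03 and -2.94 on the positive arrays and at -0.18 and 0.18 on the negative arrays, 7.92-fold lower (-2.99 ± 0.15, adjusted p = 0.00106; mm9 chromosome 11, 112648809 to 112648868). Sox8 stood at -4.94 and -4.71 against -3.89 and -3.53, 2.17-fold lower (-1.12 ± 0.17, adjusted p = 0.0154; chromosome 17, 25703094 to 25703153). The groups did not overlap for either gene, but the Sox8 call ended without positive array 1 (adjusted p = 0.0652), without negative array 2 (adjusted p = 0.0507) and with quantile normalization (adjusted p = 0.0538), and with normexp Sox8 differed by -0.52. Sox10, the neural crest and glial member, stood at -3.46 and -3.70 against -3.44 and -3.52, overlapping between groups (-0.10 ± 0.12, adjusted p = 0.538). Of 7 neural crest and glia markers tested, Sox10 among them, 3 were lower and 1 higher, led by Stmn2 (at least 13.2-fold lower, adjusted p = 0.00317) and Fabp7 (-4.29 ± 0.19, adjusted p = 0.000832). Their median was -0.10, their summed signal 0.981 and 0.998 against 1.16 and 1.11, and Stmn2 and Erbb3 were under background in positive cells.

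Sox9 is known in the ureteric bud tips and in the first nephron epithelium, and markers of both were lower in the same samples. Of 9 ureteric bud markers 8 were lower and 0 higher, with a median of -4.69, led by the receptor Ret (-6.67 ± 0.15, adjusted p = 0.000500) and the keratin Krt23 (-6.01 ± 0.17, adjusted p = 0.000500). Their summed signal was 5.40 and 4.97 on the positive and 21.1 and 24.0 on the negative arrays. Hoxb7, the ureteric bud marker that did not pass (-0.31 ± 0.14, adjusted p = 0.164), made up most of the sum on the positive arrays. Hoxb7 stood at 2.26 and 2.20 on the positive and at 2.37 and 2.71 on the negative arrays. Of 9 early nephron markers 8 were lower and 1 higher, with a median of -3.87, led by the Wnt inhibitor Dkk1 (-5.71 ± 0.28, adjusted p = 0.000973) and the Notch target Hes5 (-5.16 ± 0.31, adjusted p = 0.00152). Their summed signal was 10.1 and 10.4 against 47.9 and 57.6. No marker of either list was under background in positive cells, and the part of these cells in the Sox9 difference was not tested.

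The SoxC genes, Sox4, Sox11 and Sox12, are broadly expressed in embryonic progenitors, and both Sox genes that rose are among them. Sox4 stood at 4.01 and 3.81 on the positive arrays and at 2.96 and 3.10 on the negative arrays, 1.83-fold higher (0.87 ± 0.12, adjusted p = 0.0111; mm9 chromosome 13, 29040826 to 29040885). Its other probes gave 1.03 and 0.96. The groups did not overlap on any of the 3 probes, but the call ended without positive array 1 (adjusted p = 0.0503) and without negative array 1 (adjusted p = 0.0535). Sox11 stood at 2.98 and 3.16 against 2.66 and 2.60 (0.44 ± 0.11, adjusted p = 0.0402), its other probe gave 0.63, and its call ended with any 1 array left out (adjusted p from 0.0843 to 0.166) and with quantile normalization (adjusted p = 0.128); with the array median it differed by 0.70. Sox12 stood at -2.22 and -1.37 against -3.14 and -2.79 and did not pass (1.17 ± 0.34, adjusted p = 0.0630), although its difference was the highest of the 39 members. Positive array 1 was the lower of the positive pair, and without it Sox12 passed (1.60, adjusted p = 0.0233), as it did with the array median (1.42, adjusted p = 0.0183). Without positive array 2, negative array 1 or negative array 2 Sox12 did not pass (0.74, 0.99 and 1.35, adjusted p = 0.109, 0.194 and 0.128).

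A probe of Sox4 and the probe of Sox15 are shown because members of a family can share sequence, and these share a run of 13 bases, the longest of 1265 pairs of probes for different members (median 6). Capitals mark the bases that are identical in their best alignment without gaps, 22 of the 36 that overlap. The sequences are those of the deposited files, 5′ to 3′, at mm9 chr13:29044482-29044541 (minus strand) and chr11:69469212-69469271 (plus strand).
Sox4: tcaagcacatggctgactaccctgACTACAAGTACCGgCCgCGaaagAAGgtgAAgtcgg
Sox15: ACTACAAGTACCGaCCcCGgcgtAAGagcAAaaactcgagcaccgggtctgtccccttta
The Sox4 probe shown gave 0.16 and 0.12 on the positive and -0.89 and -0.75 on the negative arrays. Sox15, the SoxG gene, was not tested. Its spot was well above background on 1 array of each group, and the scanner software marked that on negative array 1 as an outlier. The marked spot read 749 intensity units, against 10.2 on negative array 2 and 18.5 and 10.9 on the positive arrays.

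**Figure D2:**
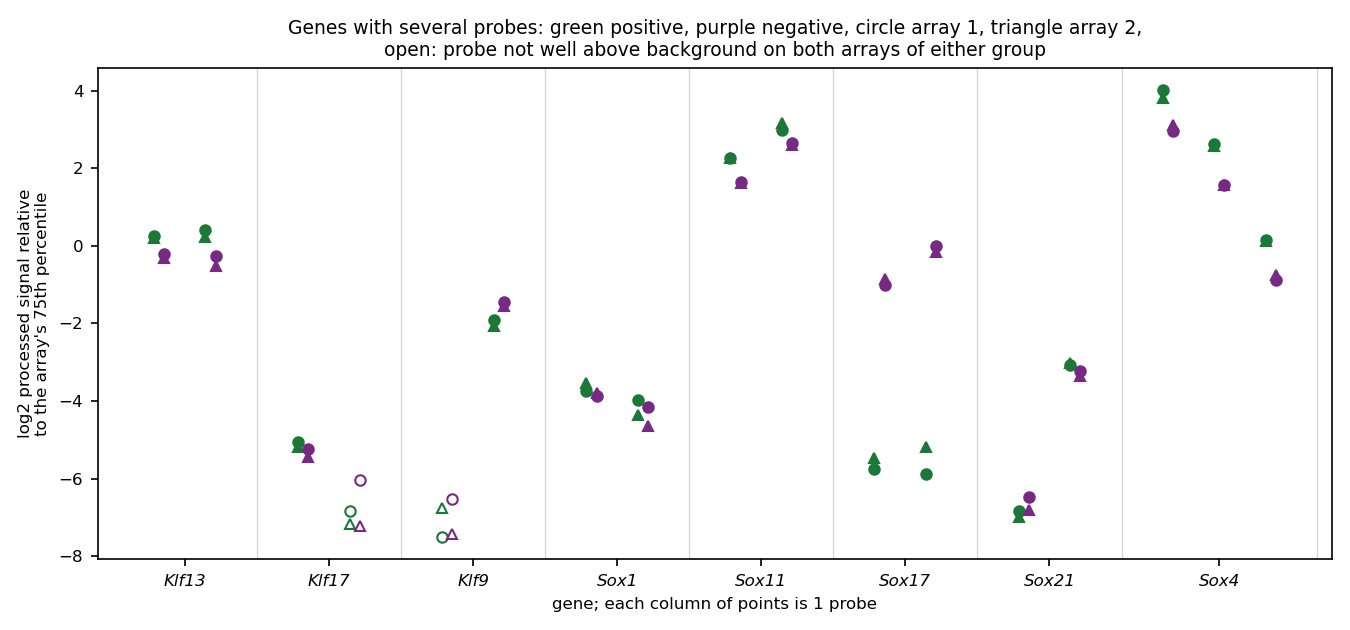
Processed signal in log2 units above or below the 75th percentile of its array (vertical axis) for the 8 members with several probes; each column of points is 1 probe, with green for positive, purple for negative, circles for array 1, triangles for array 2 and open points for probes that did not pass the background filter. The probes of Sox4, Sox11 and Klf13 all lay higher and both of Sox17 lower in positive cells, while those of Sox21 went in opposite directions.

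The SoxD genes, partners of SoxE factors in cartilage and nerve, had 2 members that fell. Sox6 stood at -9.20 and -8.96 on the positive arrays and at -5.88 and -5.55 on the negative arrays; in positive cells it stayed under background, which gives a fall of at least 2.51-fold (adjusted p = 0.000973; mm9 chromosome 7, 122615418 to 122615477). Sox13 stood at 0.79 and 0.78 against 1.31 and 1.26, a smaller fall (-0.50 ± 0.08, adjusted p = 0.0178), and its call ended with any 1 array left out (adjusted p from 0.0633 to 0.0978) and with the array median (-0.25, adjusted p = 0.125). Sox5, also under background in positive cells, did not pass (at least 1.54-fold lower, adjusted p = 0.125). The groups did not overlap for any of the 3. With normexp Sox6 differed by -0.33.

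Of the SoxB genes, which act in neural progenitors, Sox3 fell, near background. It stood at -8.17 and -9.08 on the positive arrays and at -6.31 and -5.47 on the negative arrays and was at least 2.23-fold lower (adjusted p = 0.0174; mm9 chromosome X, 58144564 to 58144623). The groups did not overlap, but the arrays of each differed by almost a log2 unit, and the call ended without negative array 2 (adjusted p = 0.0678) and with normexp (-0.26, adjusted p = 0.134). Sox1 stood at -3.73 and -3.54 against -3.88 and -3.78 (0.19 ± 0.11, adjusted p = 0.231). Sox21 stood at -3.06 and -3.02 against -3.22 and -3.34 (0.24 ± 0.09, adjusted p = 0.110), and its other probe gave -0.27. Both differences were small, and Sox14 did not pass either (0.59 ± 0.24, adjusted p = 0.127). With normexp and quantile normalization together Sox1, Sox14 and Sox21 passed (0.31, 0.33 and 0.34, adjusted p = 0.0380, 0.0374 and 0.0163). Sox14 and Sox21, but not Sox1, also passed with quantile normalization alone (0.88 and 0.50, adjusted p = 0.0222 and 0.0166). The same held with the array median (0.84 and 0.50, adjusted p = 0.0182 and 0.0199). Sox2, a factor of pluripotent and neural cells, read 2.27 to 2.85 intensity units, not well above background on any array. Sox30, the SoxH gene, read 4.02 and 5.37 units on the positive and 11.2 and 8.51 on the negative arrays, well above background on 1 of them. Neither was tested.

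**Figure D3:**
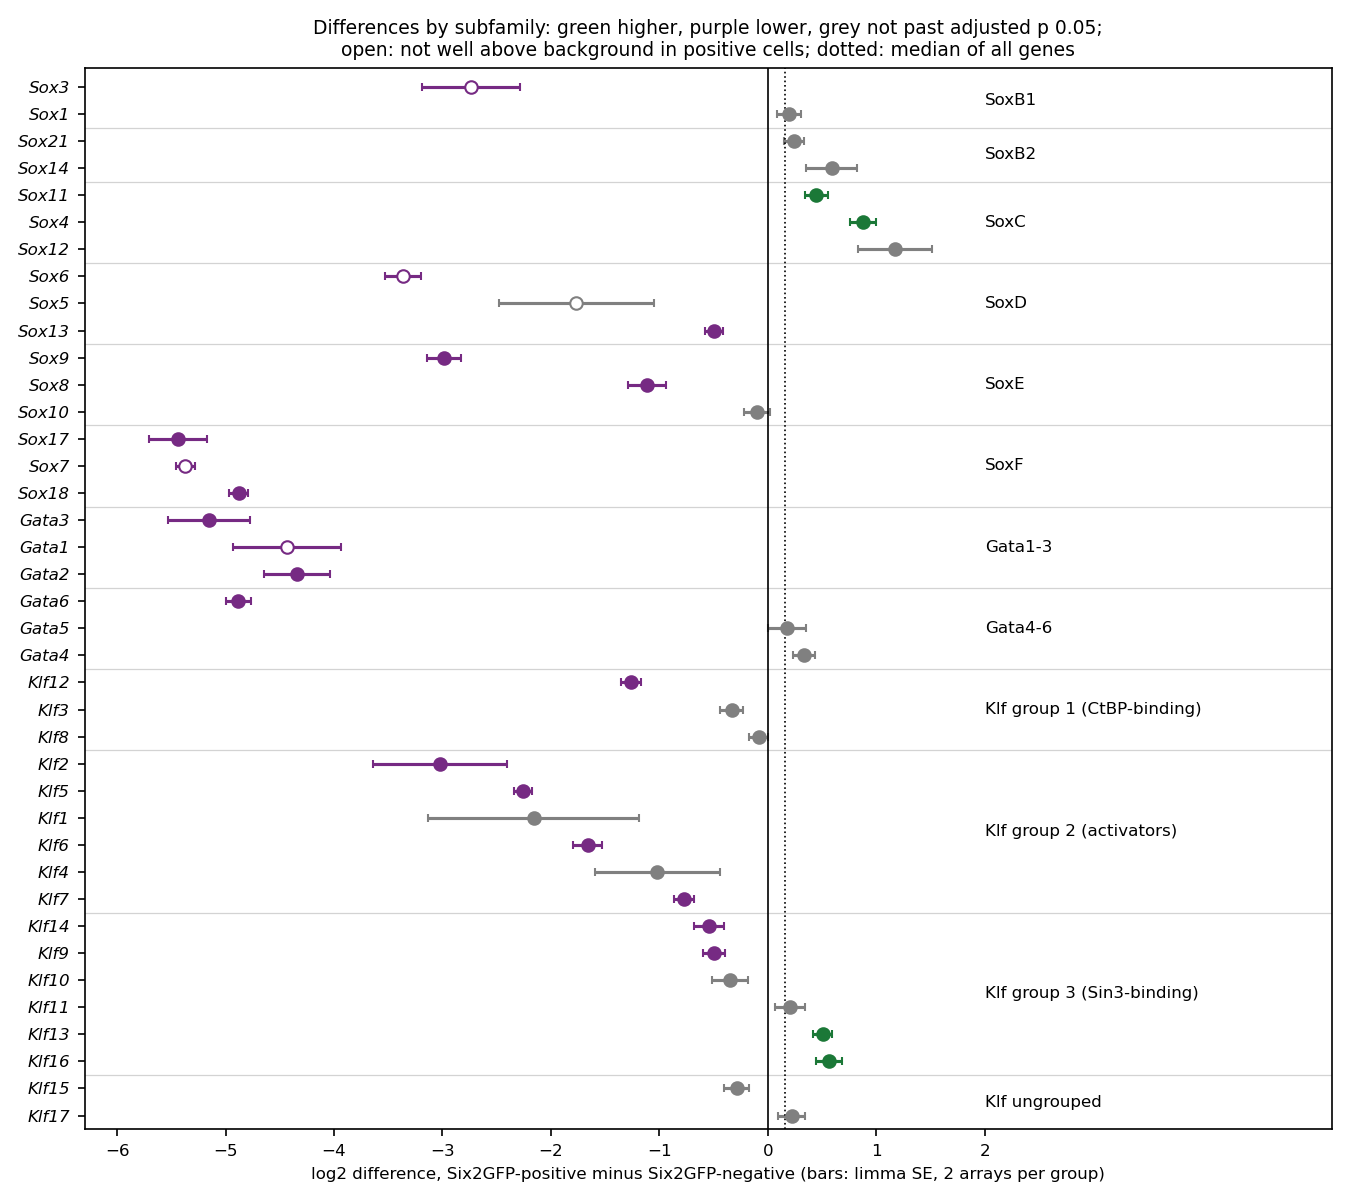
Log2 difference, Six2GFP-positive minus Six2GFP-negative (horizontal axis), of the 39 tested members by subfamily, with bars for limma's standard error; green is higher, purple lower and grey not past an adjusted p of 0.05, open points were under background in positive cells, and the dotted line is the median of all genes at 0.15. All SoxF and Gata1 to Gata3 members lie at -4.34 or lower, and the highest member that rose is Sox4 at 0.87.

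Gata1, Gata2 and Gata3, the Gata factors known in blood and, for Gata3, the nephric duct and ureteric bud, all fell. Gata1, the factor of red cells and platelets, stood at -7.55 and -8.93 on the positive arrays and at -3.72 and -3.90 on the negative arrays; neither positive array was above background, which gives a fall of at least 9.44-fold (adjusted p = 0.00688; mm9 chromosome X, 7536392 to 7536451). Gata2, of blood progenitors and endothelium, stood at -4.69 and -5.51 against -0.72 and -0.80, 20.3-fold lower (-4.34 ± 0.31, adjusted p = 0.00213; chromosome 6, 88156362 to 88156421). Gata3 stood at -1.94 and -2.97 against 2.63 and 2.76, 35.5-fold lower (-5.15 ± 0.38, adjusted p = 0.00239; chromosome 2, 9779551 to 9779610). The groups were far apart for all 3, and positive array 1 lay above positive array 2 by 1.37, 0.82 and 1.04. The ureteric bud markers, Gata3 among them, were higher on positive array 1 in 9 of 9 cases, by a median of 0.52. Their part in the Gata3 values was not tested. Without positive array 1 or 2 the Gata1 difference was -5.12 or -3.75. With normexp, Gata1 differed by -1.11 and kept its call (adjusted p = 0.000438), and Gata2 differed by -3.11.

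Erythroid markers were lower in the same samples as Gata1 and Gata2. Of 9 erythroid markers 8 were lower and 0 higher, with a median of -4.59, led by the haem enzyme Alas2 (-6.35 ± 0.16, adjusted p = 0.000500) and the globin chaperone Ahsp (-6.08 ± 0.31, adjusted p = 0.00101). Their summed signal was 42.1 and 52.3 on the positive and 554 and 524 on the negative arrays, and Epb42 was among those under background in positive cells. Hemgn, the erythroid marker that did not pass, was the brightest on the positive arrays, at 4.45 and 4.49 against 4.44 and 4.58. Of the 9 erythroid markers 1 was higher on positive array 1 than on positive array 2, and their median gap was -0.28. Of 5 megakaryocyte markers tested, 2 were lower, Itga2b among them (-0.93 ± 0.22, adjusted p = 0.0410), and 0 higher, with a median of -0.87. All 5 were higher on positive array 1 than on positive array 2, by a median of 0.77, and their summed signal was 2.40 and 1.19 against 3.40 and 2.85. Of 8 macrophage markers 2 were lower, Lyz2 (-2.54 ± 0.13, adjusted p = 0.000987) and Aif1 (-0.91 ± 0.19, adjusted p = 0.0301), and 0 higher, with a median of -0.51. All 8 were higher on positive array 1, by a median of 0.52, with summed signals of 9.98 and 6.84 against 13.5 and 11.9. The part of blood cells in the Gata1 and Gata2 values was not tested.

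Of Gata4, Gata5 and Gata6, which act in endoderm, heart and gonad, only Gata6 passed. Gata6 stood at -4.73 and -4.95 on the positive arrays and at 0.08 and 0.01 on the negative arrays, 29.5-fold lower (-4.88 ± 0.11, adjusted p = 0.000500), with the arrays of each group close together, and with normexp it differed by -3.75. Gata4 stood at -6.02 and -5.91 against -6.37 and -6.24 and did not pass (0.34 ± 0.10, adjusted p = 0.0673); it did with quantile normalization (0.58, adjusted p = 0.0496) and with the array median (0.59, adjusted p = 0.0219). Gata5 overlapped between groups (0.18 ± 0.17, adjusted p = 0.465). Of 5 adrenal cortex markers tested, another tissue of Gata4 and Gata6, 1 was lower, Cyp11a1 (at least 3.38-fold lower, adjusted p = 0.00421), and 0 higher, with a median of 0.21 and summed signals of 0.613 and 0.539 against 0.502 and 0.415. Of 9 stroma markers 8 were lower and 0 higher, with a median of -4.22, led by Tbx18, under background in positive cells (at least 26.5-fold lower, adjusted p = 0.00288), and Alx1 (-5.53 ± 0.32, adjusted p = 0.00139). The stroma markers' summed signal was 10.0 and 7.90 against 97.2 and 88.3, and their part in the Gata6 difference was not tested.

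Some members are neighbours in the genome. On mm9 the probes of Gata4 and Sox7 lie 752 kb apart on chromosome 14, and those of Gata5 and Sox18 lie 1345 kb apart on chromosome 2. In each pair the Sox gene fell and the Gata gene did not pass. The probes of Klf5 and Klf12 lie 568 kb apart on chromosome 14, and both genes fell.

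Promoter windows of 300 bases (250 before the start and 50 after it, RefSeq, GRCm38.p6) matched 30 of the 42 members, with 37 windows in all. Those of Gata1, Gata3 and Klf1 are shown because the first pair fell together and Klf1, the red cell Klf factor, is a known target of Gata1. Gata2, which fell as well, is not shown, and its windows held the word CACCC 0 and 1 times. In Gata1 (chrX:7967861-7968160, minus strand) and Gata3 (chr2:9878551-9878850, minus strand) capitals mark the word CACCC on either strand, and in Klf1 (chr8:84901732-84902031, plus strand) they mark a GATA word.
Gata1: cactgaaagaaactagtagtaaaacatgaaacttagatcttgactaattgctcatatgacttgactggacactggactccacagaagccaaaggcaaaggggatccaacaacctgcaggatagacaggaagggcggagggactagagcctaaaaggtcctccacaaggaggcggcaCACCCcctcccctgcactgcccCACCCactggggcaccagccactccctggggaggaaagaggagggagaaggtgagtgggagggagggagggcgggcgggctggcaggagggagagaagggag
Gata3: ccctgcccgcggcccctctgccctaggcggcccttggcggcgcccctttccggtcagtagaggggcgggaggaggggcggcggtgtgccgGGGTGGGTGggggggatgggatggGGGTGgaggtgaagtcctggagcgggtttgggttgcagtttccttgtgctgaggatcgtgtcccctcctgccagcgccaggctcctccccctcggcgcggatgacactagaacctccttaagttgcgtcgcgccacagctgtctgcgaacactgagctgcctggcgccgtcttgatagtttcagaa
Klf1: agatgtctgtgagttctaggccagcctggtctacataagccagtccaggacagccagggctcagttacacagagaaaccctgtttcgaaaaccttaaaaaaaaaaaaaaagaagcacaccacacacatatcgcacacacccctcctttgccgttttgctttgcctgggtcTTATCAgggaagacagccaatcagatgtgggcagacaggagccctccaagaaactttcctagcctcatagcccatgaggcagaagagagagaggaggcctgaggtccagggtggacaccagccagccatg
CACCC was searched on both strands and found 2 times in the Gata1 window, 3 times in that of Gata3, where neighbouring matches share a base, and 2 times in that of Klf1. It was present in 22 of 37 member windows and in 57.5% of 32851 windows of all genes. A GATA word was searched on both strands as AGATAA, also with T as its first letter, G as its last, or both; it was found 0, 1 and 1 times in these windows, in 7 of 37 member windows and in 29.8% of all windows. GGGCGG, the GC box, was present in 24 of 37 and 35.7%, and ACAAT, the core of a Sox site, in 11 of 37 and 31.0%. The median GC content was 63.3% over the member windows and 52.7% over all windows. These matches describe the letters of the windows only.

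Of the 6 Klf activators, Klf1, Klf2, Klf4, Klf5, Klf6 and Klf7, 4 fell. Klf5, a factor of proliferating epithelium, stood at -4.51 and -4.43 on the positive arrays and at -2.21 and -2.21 on the negative arrays, 4.79-fold lower (-2.26 ± 0.09, adjusted p = 0.000623). Klf6, an early response factor, stood at 0.35 and 0.17 against 2.04 and 1.80, 3.16-fold lower (-1.66 ± 0.13, adjusted p = 0.00289; mm9 chromosome 13, 5869371 to 5869430). Both were separated by far more than the spread of their arrays. Klf2, which blood flow induces in endothelium, stood at -1.14 and -2.70 against 1.47 and 0.75, 8.14-fold lower with a wide error (-3.03 ± 0.62, adjusted p = 0.0285; chromosome 8, 74845137 to 74845196). Without positive array 1 or 2 it differed by -3.81 or -2.24. Its call ended without negative array 1 (adjusted p = 0.108), without negative array 2 (adjusted p = 0.0814) and when dim probes were not filtered (adjusted p = 0.0559). Klf7 stood at 0.15 and 0.19 against 0.998 and 0.89, a smaller fall (-0.77 ± 0.09, adjusted p = 0.00737), with the groups apart. With normexp and quantile normalization Klf5 differed by -1.44.

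Klf1 and Klf4 did not pass, and arrays of the same group lay far apart in both. Klf1 stood at -5.52 and -5.26 on the positive arrays and at -1.88 and -4.59 on the negative arrays (-2.16 ± 0.97, adjusted p = 0.155), so that negative array 1 alone was high. Without negative array 2 it passed (-3.51, adjusted p = 0.00980), and without negative array 1 it did not (-0.80, adjusted p = 0.0648). Klf4, a barrier factor of epithelia, stood at -0.67 and -1.98 against 0.16 and -0.78, overlapping between groups (-1.02 ± 0.58, adjusted p = 0.234).

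Array 1 of each group read higher than array 2 for Klf2 and Klf4. For Klf2 the gap was 1.56 in positive and 0.72 in negative cells, and for Klf4 it was 1.31 and 0.94. Klf6, the early response factor, had smaller gaps of 0.180 and 0.235, and Klf10 was lower on array 1 in both groups (-0.345 and -0.222). The immediate early genes Fos, Fosb, Jun, Junb, Egr1, Atf3, Ier2 and Dusp1, a list chosen after these values were seen, were higher on array 1 in 8 of 8 cases in both groups, by a median of 1.09 in positive and 1.03 in negative cells. Of these 8, Atf3 was lower in positive cells (-2.64 ± 0.66, adjusted p = 0.0448) and 0 were higher. What the arrays numbered 1 share was not tested. Over the members, the positive arrays differed by more than 0.5 in 9 of 39 (23.1%), against 8.85% of all genes: Gata1, Gata2, Gata3, Klf2, Klf4, Sox3 and Sox5 were higher on array 1, and Sox12 and Sox17 on array 2. Gata1, Sox3 and Sox5 were under background on both positive arrays, so their gaps there compare signals that may be noise. The negative arrays differed by that much in 6 members (15.4%), against 10.1% of all genes.

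**Figure D4:**
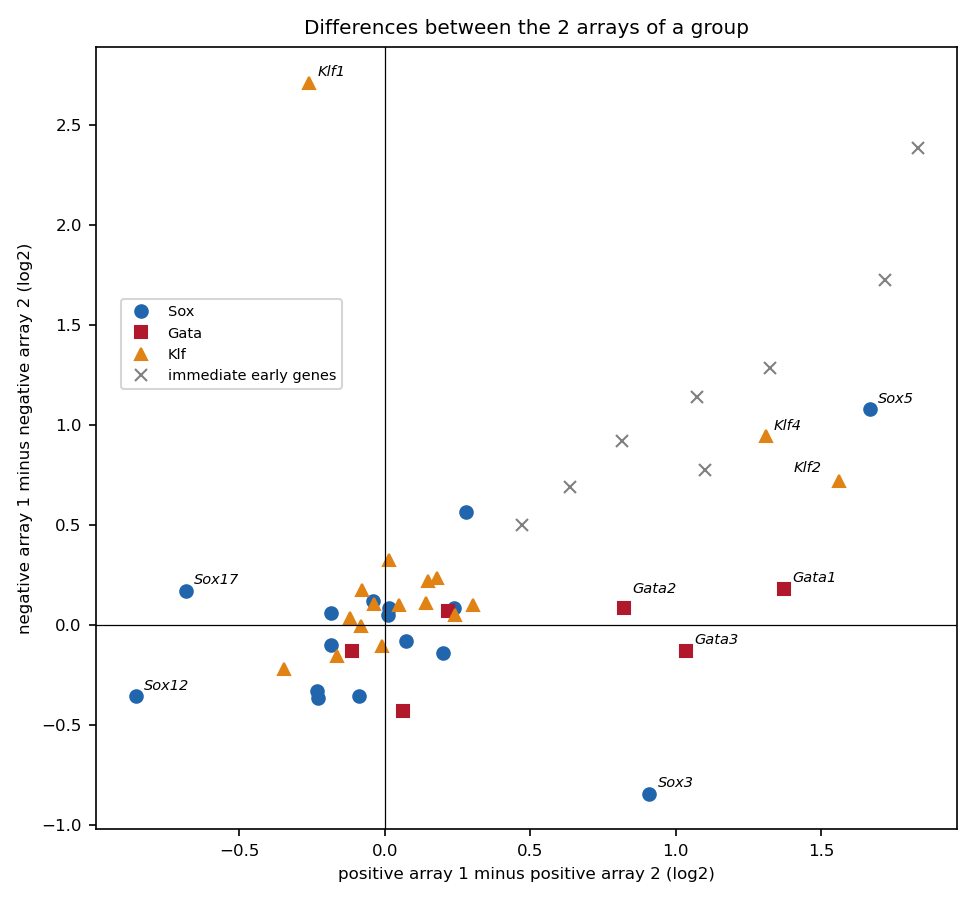
Each point is 1 tested member; the horizontal axis is positive array 1 minus positive array 2 and the vertical axis negative array 1 minus negative array 2, both in log2, and grey crosses are the 8 immediate early genes. Klf2, Klf4 and Sox5 lie to the upper right as the crosses do, Gata1, Gata2 and Gata3 differ mainly between the positive arrays, and Klf1 mainly between the negative arrays. Gata1, Sox3 and Sox5 were under background on both positive arrays.

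The probes of Klf5 and Klf13 are shown because no pair of probes for different members had more identical bases, 29 of the 40 that overlap in their best alignment without gaps (median of all pairs 21), while the genes went opposite ways. Capitals mark the identical bases, and the longest shared run is 8. The Klf13 probe lies at mm9 chr7:71082854-71082913 (minus strand). The Klf5 probe lies at chr14:99702656-99712388 (plus strand), a span of 9733 bases for a probe of 60, so it joins separate stretches of the genome.
Klf5: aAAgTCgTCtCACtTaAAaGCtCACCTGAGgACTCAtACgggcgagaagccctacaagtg
Klf13: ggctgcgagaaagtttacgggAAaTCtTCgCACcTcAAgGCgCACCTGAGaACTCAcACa
Klf13 stood at 0.26 and 0.22 on the positive arrays and at -0.22 and -0.32 on the negative arrays, 1.42-fold higher (0.51 ± 0.09, adjusted p = 0.0207), against the fall of Klf5. A second Klf13 probe, on the opposite strand, gave 0.71, and signal from that strand need not come from the same transcript.

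Klf13 is one of 6 Sin3-binding repressors, whose differences were small and went both ways. Klf16 also rose (0.57 ± 0.12, adjusted p = 0.0303), while Klf9, a hormone-induced factor (-0.50 ± 0.10, adjusted p = 0.0289), and Klf14 (-0.54 ± 0.14, adjusted p = 0.0482) fell. None of these 4 calls held with single arrays left out: any 1 array ended those of Klf13 (adjusted p from 0.0576 to 0.107), Klf16 (from 0.0548 to 0.112) and Klf9 (from 0.0768 to 0.133). The Klf14 call ended without either positive array or negative array 1 (from 0.0914 to 0.162). With the array median Klf9 and Klf14 lost their calls (-0.25 and -0.29, adjusted p = 0.131 and 0.111), and Klf13 differed by 0.76. Klf10 and Klf11, which respond to TGF-beta, did not pass (-0.35 and 0.20, adjusted p = 0.173 and 0.308), but Klf11 did with the array median (0.45, adjusted p = 0.0420) and with quantile normalization, with or without normexp (adjusted p = 0.0356 and 0.0497).

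Of the CtBP-binding repressors Klf12 fell. It stood at -2.85 and -2.73 on the positive arrays and at -1.51 and -1.55 on the negative arrays, 2.40-fold lower (-1.26 ± 0.09, adjusted p = 0.00233; mm9 chromosome 14, 100270699 to 100270758), with the groups well apart. Klf3 stood at 2.18 and 2.26 against 2.64 and 2.47 (-0.33 ± 0.10, adjusted p = 0.0740), and passed with quantile normalization (-0.48, adjusted p = 0.0400), while with the array median it differed by -0.08 (adjusted p = 0.582). Klf8 did not pass (-0.09 ± 0.09, adjusted p = 0.486). Of the ungrouped members, Klf15, known in podocytes, stood at -2.66 and -2.49 against -2.37 and -2.21 (-0.29 ± 0.11, adjusted p = 0.121), and Klf17, known in the early embryo, did not pass (0.22 ± 0.12, adjusted p = 0.234). Klf17 passed with quantile normalization, the array median, or normexp and quantile (0.51, 0.47 and 0.23, adjusted p = 0.0155, 0.0270 and 0.0390). Of 8 podocyte markers 6 were lower and 1 higher, with a median of -2.55, Podxl among those lower (-4.45 ± 0.21, adjusted p = 0.000894), and summed signals of 74.6 and 76.3 against 86.4 and 90.2.

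Partners and relatives of the families were read from further gene lists, beside the 38.9% of all genes called. Of 13 Gata cofactors and blood partners 8 were lower and 4 higher, with a median of -1.59. Fli1, an ETS factor of endothelium and platelets, and Zfpm2, a Fog cofactor of Gata4, had the largest differences (-4.21 ± 0.15, adjusted p = 0.000583, and -3.97 ± 0.18, adjusted p = 0.000875). Zfpm1, the Fog cofactor of Gata1, was among those that rose (1.04 ± 0.09, adjusted p = 0.00310). Of 14 TCF/LEF and other HMG-box genes, which share the Sox DNA-binding fold, 7 were higher and 3 lower, with a median of 0.33. The Wnt effector Lef1 (-4.26 ± 0.10, adjusted p = 0.000500) and Tox (-4.10 ± 0.13, adjusted p = 0.000515) had the largest differences. Of 14 Sp factors and Klf corepressors tested, 3 were higher and 1 lower, with a median of 0.27. Sp4 (0.59 ± 0.08, adjusted p = 0.0129) and the scaffold Sin3a (0.56 ± 0.13, adjusted p = 0.0373) had the largest differences that passed.

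Genes known as targets of the families in various tissues were listed too. Of 15 Sox targets tested, 9 were higher and 3 lower, with a median of 0.52. The cartilage protein Matn1 stayed under background in negative cells, which gives a rise of at least 11.1-fold (adjusted p = 0.000500), and the endothelial junction protein Cldn5 fell (-5.21 ± 0.11, adjusted p = 0.000500). Collagens that Sox9 is known to activate in cartilage, Col2a1 (2.17 ± 0.08, adjusted p = 0.000626) and Col11a2 (2.41 ± 0.10, adjusted p = 0.000724), rose in the cells where Sox9 fell. Col9a1 rose too (0.80 ± 0.17, adjusted p = 0.0327), while the cartilage genes Acan and Comp did not pass (0.13 and -0.39, adjusted p = 0.313 and 0.171). Of 13 Gata targets tested, 9 were lower and 0 higher, led by Ret and Alas2, which also stand on the marker lists above. Their median of -2.16 is the value of Klf1, itself a member, which did not pass. Of 13 Klf targets tested, 7 were lower and 1 higher, with a median of -0.92, led by the endothelial genes Tek (-5.19 ± 0.35, adjusted p = 0.00195) and Nos3 (-3.02 ± 0.10, adjusted p = 0.000550). These counts describe the lists, several of which share genes with the cell markers.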

How the data were processed

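RNA of 4 sorted samples was read on Agilent arrays of design 026655. The authors quantified the scans with Feature Extraction 10.7.3.1 (protocol GE1_107_Sep09), per the file headers, and positions refer to mm9; further steps are not given in the sources used here. The deposited scanner files hold linear intensity per spot without normalization across arrays. A deposited value table held the same processed intensity, with at least 99.8% of probes within 0.01 log2 on each array.

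Outlier spots were left out, spots of a probe averaged and log2 processed signals set relative to the array's 75th percentile. A probe was kept if either group had it well above background on both of its arrays (30012 of 39395), and the brightest stood for its gene. Names were updated by RefSeq accession (GRCm38.p6), which changed 0 members' names. The test was the moderated statistic of limma (version 3.58.1, R 4.3.3), two-sided, with Benjamini-Hochberg adjustment over 24150 genes and a threshold of 0.05; the script was tested on simulated data. Members and lists were chosen with earlier results of these data known. Values on all arrays are given for members past the threshold with a difference or bound of 2-fold or more and for the best other member of each subfamily; of each list the 2 genes with the largest difference past the threshold are named, apart from a few genes not reported here. Array values of Klf1, Klf4, Sox11 and Sox12, and Kdr, Zfpm1, Col2a1, Col11a2 and the immediate early genes were added after their values were seen. So were Hoxb7, Hemgn, Col9a1, Acan, Comp, the array gaps of Klf6 and Klf10 and the promoter matches of Gata2. The 4 arrays share 1 slide and 1 scan time. Alternatives changed the scaling, background correction, filter, choice of probe, names, variance model and replicate block, and left out each array. No annotation of mm9 was used here, so exon and UTR positions of probes are not given.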

Additional observations from a re-analysis of the deposited data

How the results depend on the processing

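No call reversed under any alternative. Of the 23 calls, those of Sox6, Sox7, Sox9, Sox17, Sox18, Gata1, Gata2, Gata3, Gata6, Klf5, Klf6, Klf7 and Klf12 held under every alternative that measured them. Sox genes higher, 2, became 4 with quantile normalization, 5 with the array median or with normexp and quantile, 3 with normexp and the 75th percentile or a trended robust variance, and 1 without a filter. Klf genes higher, 2, became 4 with quantile normalization, the array median or normexp and quantile, and 1 without a filter. Gata genes higher, 0, became 1 with quantile normalization or the array median. Of all genes 20.7% were higher at the settings of the report, 25% with quantile normalization, 44.8% with the array median, 28.7% with normexp and the 75th percentile, 26.3% with normexp and quantile, 26.2% with the trended robust variance and 8.21% without a filter. Sox genes lower, 8, became 5 with a filter on all 4 arrays, which by construction leaves out dim members, and Klf genes lower, 7, became 4 without a filter, against 18.3%, 16.4% and 12% of all genes at the report's settings, with that filter and without one. With each array left out in turn, Sox genes higher ranged from 0 to 1 and lower from 5 to 7, Klf genes higher were 0 throughout and lower ranged from 4 to 6, and Gata genes lower remained 4. Normexp, whose offset compresses low signals by construction, gave the smaller differences stated in the report. Signals close to background limit Sox3, Sox5, Sox6, Sox7 and Gata1.

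The labels number the samples of both groups 1 and 2 without saying what a number shares; deviations from the group means correlated at 0.224 across genes between same-numbered samples, over 2 pairs. With the replicate number as a block 3 Sox and 2 Klf genes were higher and 9 Sox, 4 Gata and 7 Klf genes lower. Of the 23 calls 21 held; Klf14 (adjusted p = 0.0554) and Sox11 (adjusted p = 0.0631) were lost, and Klf4, Sox5, Sox12 and Sox14 were gained (adjusted p = 0.0242, 0.0170, 0.0276 and 0.0462), against 17.6% of all genes higher and 18.1% lower.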
